A study of Mus musculus with 6 samples.

Results

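The SLC25 family of mitochondrial carriers was followed in RNA of primary hepatocytes, the main cells of liver tissue, taken from alcohol-fed mice of 2 genotypes. Its members were the genes whose symbol is Slc25a followed by a number or that are named Ucp1, Ucp2 or Ucp3. This rule uses no measured value and found 45 of the 25718 genes of the deposited table. The family itself was chosen with earlier results of these data known, as were the gene lists set beside it. There were 3 libraries from wild-type (WT) mice and 3 from mice named S100a16KO+/-, in which 1 of the alleles of S100a16, a calcium-binding protein of the S100 family, is deleted. The sample labels call this second genotype S100A16 knockdown, and the name of the study is used here. Per the study's methods, the heterozygous mice came from a floxed allele recombined by EIIa-Cre, a transgene active in the early embryo, on a C57BL/6 background, so that the deletion is not limited to hepatocytes, and homozygous loss was lethal. All the mice were males of 8 to 10 weeks at the start of feeding, and both genotypes had 5 days of control liquid diet, 10 days of a diet with 5% ethanol and 1 gavage of ethanol at 5 g/kg, with collection planned 9 h later. Every library thus came from an ethanol-fed animal, and a genotype difference without ethanol was not analysed here. The cells were obtained by collagenase perfusion and a Percoll step, which enrich hepatocytes and can leave other liver cells behind. Whether each library came from 1 mouse is not given in the sources used here, so the spread between libraries may be in part technical.

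Mitochondrial carriers are small proteins of the inner mitochondrial membrane, built from a repeated module that was copied within the gene, and they exchange nucleotides, phosphate, carboxylates, amino acids, acyl groups, cofactors and metal ions between cytosol and matrix. Most of them work as antiporters, so that import of one substrate is paid for by export of another. In the liver they link pathways that are split between the compartments, among them urea synthesis, gluconeogenesis, fatty acid oxidation, lipogenesis and the reoxidation of cytosolic NADH that ethanol oxidation produces. The carriers are made in the cytosol and reach the inner membrane through the TOM and TIM22 complexes.

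The estimated counts of a library, which the authors did not scale, added up to between 67658095 and 71807834, and 1 sequenced fragment was worth about 4 of them. S100a16 itself had 1001, 1056 and 1107 counts in WT and 433, 390 and 366 counts in S100a16KO+/- libraries, in the direction of the labels. Mitochondrially encoded transcripts took 21.1% of the counts of WT replicate 1 and 20.1% of those of S100a16KO+/- replicate 2, against 17.0% to 18.6% in the other libraries. Hepatocyte markers were abundant in both genotypes, with a summed level of 104072 to 115632 CPM (counts scaled to a common library total) in WT and 100927 to 112347 CPM in S100a16KO+/- libraries, and 2 of the 6 markers, Ttr and Cyp2e1, were called lower, each at a log2 fold change of -0.33. Apoa1 and Asgr1 were at 0.21 and 0.15 (edgeR adjusted p = 0.0538 and 0.0561) and were called higher by DESeq2. Here and below, CPM is scaled by TMM, a factor that adjusts for the makeup of each library, and is used to compare libraries. FPKM, which also divides by transcript length, is used to compare genes. A gene is called when its adjusted p in the quasi-likelihood test of edgeR is under 0.05.

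The carriers differed widely in level. Slc25a47, a carrier found almost only in liver, had 259.9 ± 15.6 FPKM in WT and 238.1 ± 13.5 FPKM in S100a16KO+/- hepatocytes (SD, n = 3 each), and Slc25a5, which encodes the main ADP/ATP carrier of dividing and many other cells, had 171.6 ± 9.94 and 146.8 ± 16.1 FPKM. These 2 genes made up 51.2% to 53.1% of the family's FPKM in WT libraries and 47.6% to 49.3% in S100a16KO+/- libraries. The level of 11 members lay between 10 and 100 FPKM, that of 16 between 1 and 10 FPKM and that of another 16 under 1 FPKM. The latter hold Slc25a4, the ADP/ATP carrier of heart and muscle, with 0.659 ± 0.109 FPKM in WT. In all, 29 members had a mean of at least 1 FPKM.

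**Figure D1:**
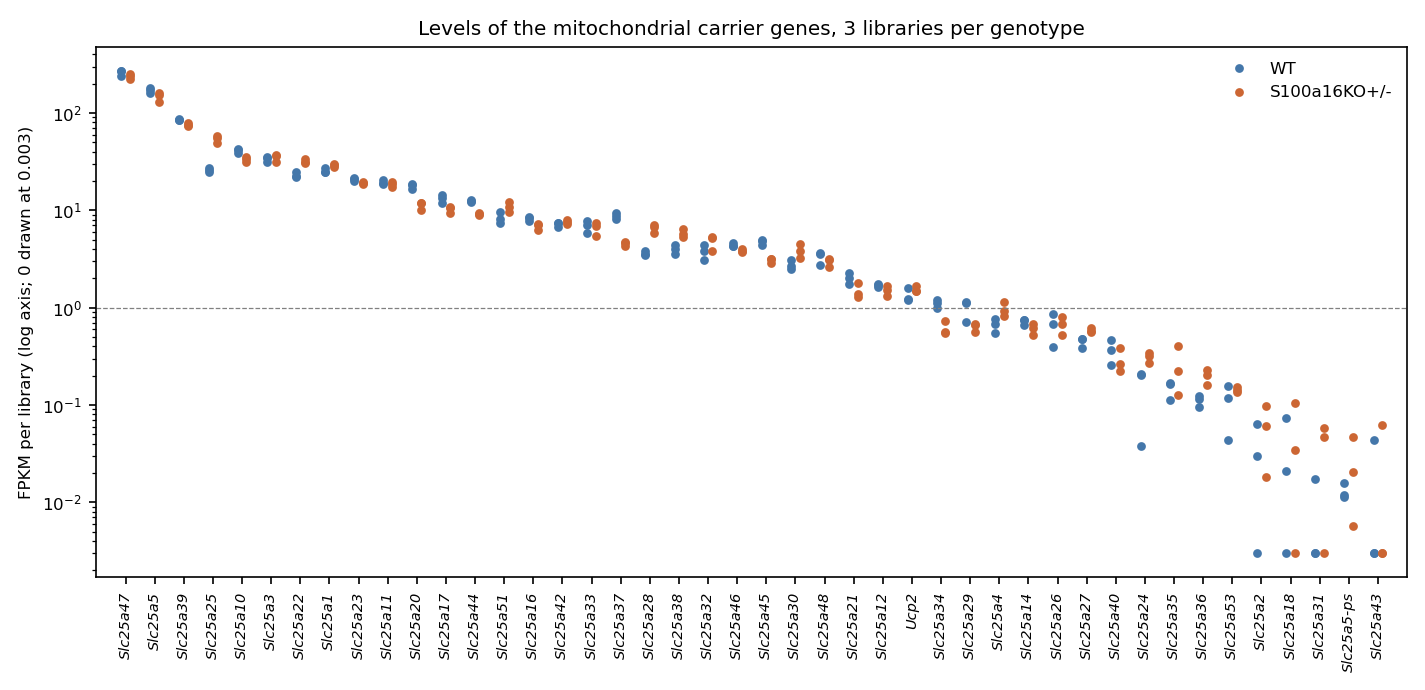
Level of the carrier genes described here in FPKM (log axis, a value of 0 drawn at 0.003), 1 point per library, WT in blue and S100a16KO+/- in orange, ordered by mean. Slc25a47 and Slc25a5 stand above 100 FPKM in every library, and the dashed line marks 1 FPKM.

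A measurable level was missing for 5 members, which did not pass the filter on low counts. Slc25a2, a second ornithine carrier, Slc25a31, the ADP/ATP carrier of the testis, Slc25a43 and the pseudogene Slc25a5-ps stayed at or under 12 counts in every library, the number that a count of 0 allows when 3 fragments can be missed. Slc25a18, the second glutamate carrier, reached at most 16 counts. Slc25a41, Slc25a52, Slc25a54, Ucp1 and Ucp3 were not analysed here.

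The filter kept 15957 genes, the remaining 40 members among them. Of these 40, 19 were called at an adjusted p under 0.05 (47.5%), against 22.8% of all tested genes. Since the family was chosen with earlier results known, this share describes it and does not test it. The calls split into 8 members higher in S100a16KO+/- hepatocytes (background 11.6%) and 11 lower (background 11.2%). Higher members were the ATP-Mg/phosphate carrier Slc25a25, the mitoferrin Slc25a28, the nucleotide carrier Slc25a36, the glycine carrier Slc25a38, Slc25a30, the glutamate carrier Slc25a22, the NAD carrier Slc25a51 and the folate and FAD carrier Slc25a32. Lower members were the mitoferrin Slc25a37, Slc25a34, the carnitine/acylcarnitine carrier Slc25a20, Slc25a29, Slc25a45, Slc25a44, Slc25a17, Slc25a10, Slc25a16, Slc25a5 and Slc25a47. Since called shares rise with expression, the 29 members of at least 1 FPKM were also set against the 9043 tested genes at that level, and 16 of them were called, 7 higher and 9 lower, against 32.7% of those genes.

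The 6 libraries separated by genotype, with no overlap in CPM, for 24 of the 40 members (60%), against 37.9% of all tested genes. Of the 19 called members, 18 had no overlap in CPM, and Slc25a32 was the exception. For some members this depended on the scale. In FPKM, Slc25a47, Slc25a51, Slc25a11 and Slc25a12 overlapped, whereas Slc25a39, Slc25a1 and Slc25a23, which overlapped in CPM, did not. Statements on overlap below are in CPM unless FPKM is named. The median log2 fold change of the members was -0.08, beside 0.01 for all tested genes, and the median absolute change was 0.36, beside 0.25. By the criterion of a fold change of 2 or more with an unadjusted p under 0.05, which 4.52% of tested genes met (2.9% higher and 1.62% lower), 2 members passed, Slc25a25 and Slc25a24, both higher. Slc25a24 is at trace level and did not meet the criterion without WT replicate 1, S100a16KO+/- replicate 1 or S100a16KO+/- replicate 2, at log2 fold changes of 0.62, 1.05 and 0.94. Without S100a16KO+/- replicate 1 the count stayed at 2 because Slc25a35, with a log2 fold change of 1.04 there, met it instead, and without either of the other libraries it was 1.

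**Figure D2:**
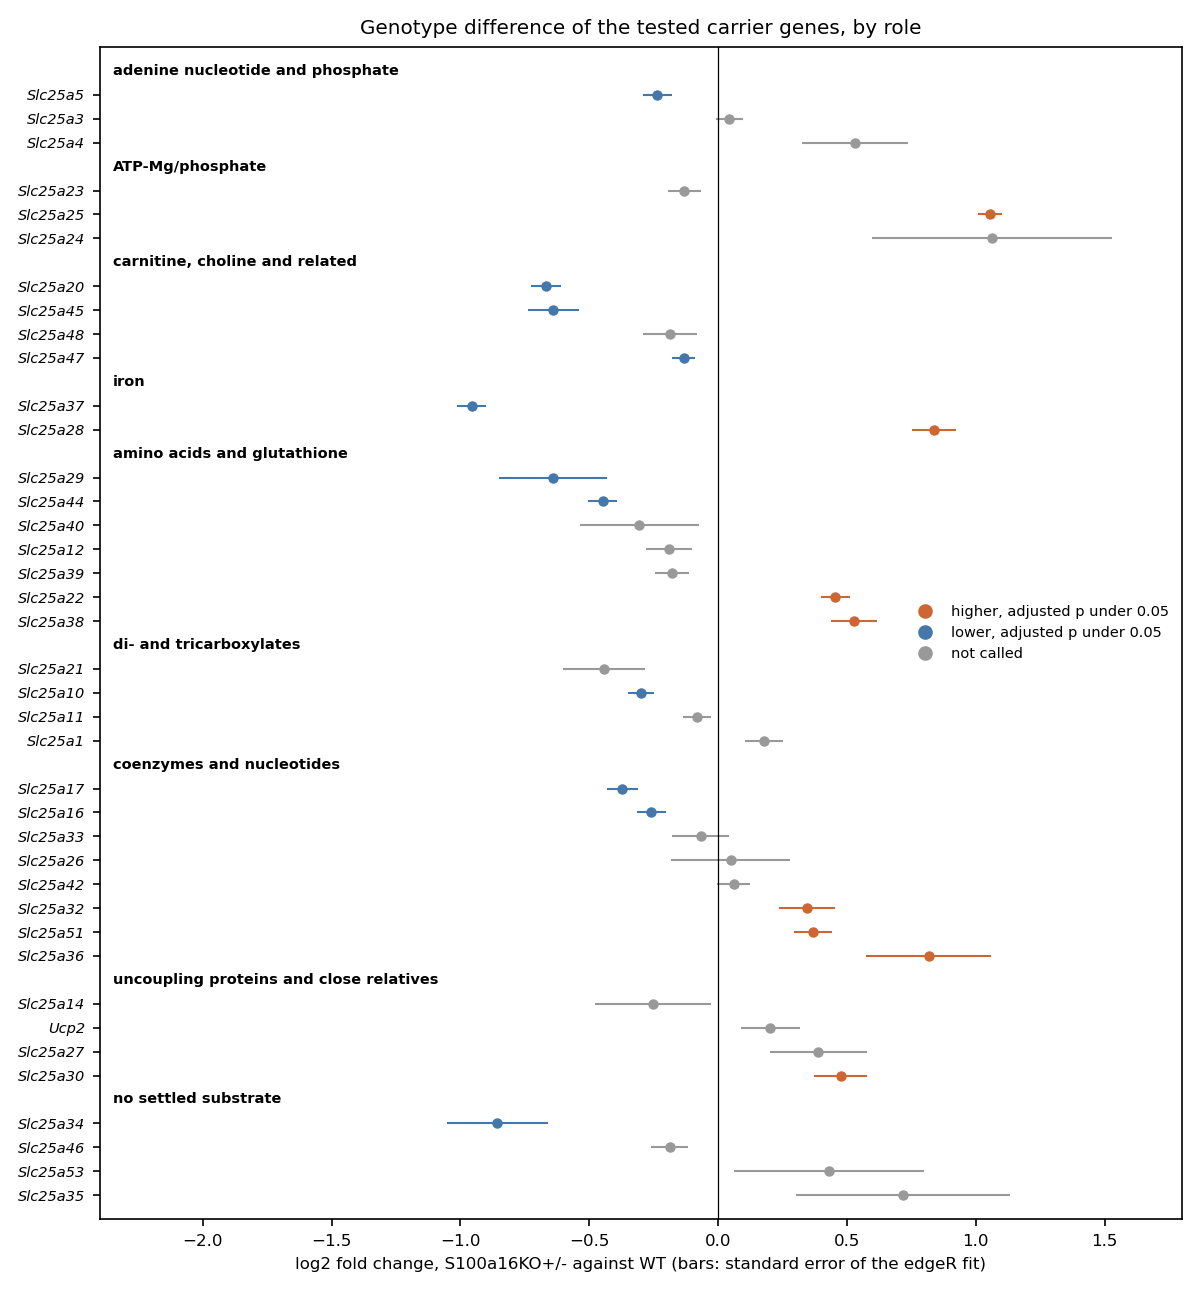
Log2 fold change of the tested members described here, S100a16KO+/- against WT, with the standard error of the edgeR fit as a bar, grouped by substrate. Orange points are called higher, blue points lower and grey points not called, and both directions occur among the amino acid, coenzyme and iron carriers.

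The summed level of all 45 members was 3024, 3019 and 3023 CPM in the WT libraries and 3064, 3062 and 3119 CPM in the S100a16KO+/- libraries. The totals of the genotypes lay within a few percent of each other, while the makeup of the family differed. The 8 members called higher had 503.6 CPM in sum in WT and 853.0 CPM in S100a16KO+/-, and the 11 called lower had 1656 and 1399 CPM. These sums restate the calls, and Slc25a25 carried most of the difference of the first.

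Slc25a25 encodes a carrier that swaps cytosolic ATP-Mg for matrix phosphate and so sets the size of the adenine nucleotide pool of the matrix, and calcium binding to its long N-terminal domain opens it. The gene lies on mouse chromosome 2 (GRCm38, 32414487 to 32451422, minus strand). It had 229.9, 231 and 223.4 CPM in the WT libraries and 474, 461 and 487 CPM in the S100a16KO+/- libraries. All 3 S100a16KO+/- values lay far above the WT values, and libraries of 1 genotype differed little from each other. The log2 fold change was 1.05 (SE 0.05, edgeR adjusted p = 1.23e-09), from 228.1 ± 4.12 to 474.0 ± 13.1 CPM (SD, n = 3 each). It was the most abundant member among those that rose, and its FPKM rank in the family moved from 6 in WT to 4 in S100a16KO+/- hepatocytes, past Slc25a10 and Slc25a3. No 31-base word of its transcripts occurs in other annotated transcripts, and 966 bases of its extent overlap Naif1 on the opposite strand, which had 0.484 FPKM.

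RefSeq gives Slc25a25 several starts, whose transcripts differ in their first exon, and the table holds 1 value for all of them, so the level of each start was not measured. The windows are printed because Slc25a25 showed the largest change of any called member, and because they differ in sequence. Each runs from 250 bases before a start to 50 bases after it (RefSeq, GRCm38.p6), in the direction of transcription, and the starts are called far, middle and near by their distance from the gene's 3′ end. Capitals mark the letters TGACGTCA, the palindromic cyclic AMP response element (CRE).
Slc25a25 far start (chr2:32451421-32451720, minus strand): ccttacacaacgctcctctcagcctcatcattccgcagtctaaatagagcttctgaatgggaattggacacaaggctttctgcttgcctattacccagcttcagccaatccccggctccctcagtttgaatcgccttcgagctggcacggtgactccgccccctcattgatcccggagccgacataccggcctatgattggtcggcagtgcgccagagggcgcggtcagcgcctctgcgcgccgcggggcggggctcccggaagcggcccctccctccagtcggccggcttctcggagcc
Slc25a25 middle start (chr2:32431102-32431401, minus strand): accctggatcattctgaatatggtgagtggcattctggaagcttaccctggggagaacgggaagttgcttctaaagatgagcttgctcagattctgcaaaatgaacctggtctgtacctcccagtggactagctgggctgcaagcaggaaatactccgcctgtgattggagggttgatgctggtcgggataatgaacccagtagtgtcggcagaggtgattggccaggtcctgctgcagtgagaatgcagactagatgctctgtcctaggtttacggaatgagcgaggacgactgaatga
Slc25a25 near start (chr2:32424017-32424316, minus strand): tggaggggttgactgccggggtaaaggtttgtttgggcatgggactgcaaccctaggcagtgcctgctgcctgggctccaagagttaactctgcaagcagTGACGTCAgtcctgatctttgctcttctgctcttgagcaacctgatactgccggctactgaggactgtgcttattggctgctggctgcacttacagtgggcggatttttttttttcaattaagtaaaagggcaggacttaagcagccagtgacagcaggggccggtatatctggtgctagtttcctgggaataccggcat
The CRE letters occur 150 bases before the near start and in neither of the other windows. The far start is rich in CG dinucleotides, with 25 in its 300 bases, against 7 and 6 in the other windows. Of the 45 members, 34 had at least 1 window in the RefSeq table, 43 windows in all. The CRE letters were found in 2 of the 43 member windows, those of 2 members, Slc25a25 and Slc25a36, and in 1.79% of the 32851 windows of the RefSeq table. The E-box CACGTG occurred in 6 of the 43 member windows, those of 5 members, Slc25a1, Slc25a14, Slc25a31, Slc25a33 and Slc25a36, and in 7.15% of all windows. Both of these read the same on the 2 strands. The letters TGACGTGG and TGATGNAAT and the ER stress response element (ERSE), a longer motif, which are known from factors of the unfolded protein and amino acid responses, were searched on both strands and found in 0 of the member windows, and in 0.676%, 0.965% and 0.119% of all windows. A match is a description of the sequence and does not show that a factor binds there.

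Neither of the close relatives of Slc25a25 was called. Slc25a23, the second abundant ATP-Mg/phosphate carrier, had 123.2 ± 6.68 CPM in WT cells and 112.5 ± 8.45 CPM in S100a16KO+/- cells (log2 fold change -0.13, SE 0.06, edgeR adjusted p = 0.168). Without S100a16KO+/- replicate 2 its adjusted p was 0.0331, at a log2 fold change of -0.19. Slc25a24, the form of many proliferating cells, had 0.161, 0.767 and 0.789 CPM in WT and 1.21, 1.40 and 0.985 CPM in S100a16KO+/- libraries (log2 fold change 1.06, SE 0.46, edgeR adjusted p = 0.125), where the lowest WT value is under the level that a count of 0 allows. The sum of these 3 carriers was 351.9 ± 9.67 CPM in WT cells and 587.6 ± 5.53 CPM in S100a16KO+/- cells.

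Iron reaches the matrix, where heme and iron-sulfur clusters are made, through the mitoferrins, and these 2 genes changed in opposite directions. Slc25a37, the mitoferrin that red cell precursors depend on (chromosome 14, 69241848 to 69285112, minus strand), had 58.3, 61.9 and 57.3 CPM in the WT libraries and 30.7, 30.4 and 30.3 CPM in the S100a16KO+/- libraries. The values of each genotype were tightly grouped and far apart. Its log2 fold change was -0.96 (SE 0.06, edgeR adjusted p = 2.15e-08), the strongest fall of any member. Slc25a28, the mitoferrin of other tissues (chromosome 19, 43663801 to 43674860, minus strand), had 16.9, 14.7 and 14.3 CPM in WT and 27.7, 25.9 and 28.4 CPM in S100a16KO+/- libraries. All the S100a16KO+/- values were higher, and the log2 fold change was 0.84 (SE 0.08, edgeR adjusted p = 5.42e-06). On the FPKM scale the order of the pair turned over. Slc25a37 stood at 8.78 ± 0.648 FPKM and Slc25a28 at 3.63 ± 0.176 FPKM in WT, and at 4.54 ± 0.228 and 6.56 ± 0.626 FPKM in S100a16KO+/- hepatocytes. The ratio of Slc25a28 to Slc25a37 in FPKM was 0.465, 0.379 and 0.401 in WT replicates and 1.45, 1.37 and 1.5 in S100a16KO+/- replicates, a description of a pair that was chosen after its values were seen.

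**Figure D3:**
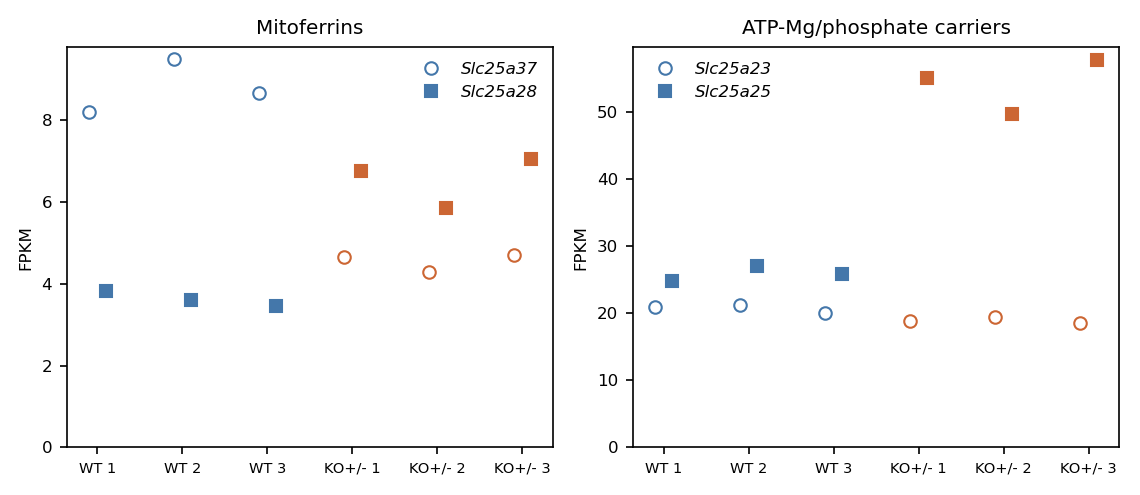
FPKM in each library of the mitoferrins (left) and of the abundant ATP-Mg/phosphate carriers (right), WT in blue and S100a16KO+/- in orange. Slc25a37 lies above Slc25a28 in all 3 WT libraries and under it in all 3 S100a16KO+/- libraries, whereas Slc25a25 lies above Slc25a23 in all 6 and by more in S100a16KO+/-.

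Red cell transcripts moved with Slc25a37. All 5 erythroid markers tested, out of 8 listed, were called lower, and their sum was 214.8 to 252.1 CPM in WT libraries and 23.4 to 26.3 CPM in S100a16KO+/- libraries. The globin genes fell by 3.43 to 3.57 on the log2 scale (Hbb-bs and Hba-a2 at the ends of that range), and Alas2, the first enzyme of heme synthesis in red cells, had a log2 fold change of -0.70. Their part in the result for Slc25a37 was not tested. In bulk samples, fewer cells of a type and less RNA per cell cannot be told apart. The transcripts of Slc25a37 share 7.72% of their 31-base words with other annotated transcripts, mostly with Gm16867.

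The promoter window of Slc25a28 is shown as the counterpart of the Slc25a25 windows, since it belongs to the other member that rose strongly at a clear level. None of the 5 searched letter sets occurs in it, so it carries no capitals.
Slc25a28 (chr19:43674832-43675131, minus strand): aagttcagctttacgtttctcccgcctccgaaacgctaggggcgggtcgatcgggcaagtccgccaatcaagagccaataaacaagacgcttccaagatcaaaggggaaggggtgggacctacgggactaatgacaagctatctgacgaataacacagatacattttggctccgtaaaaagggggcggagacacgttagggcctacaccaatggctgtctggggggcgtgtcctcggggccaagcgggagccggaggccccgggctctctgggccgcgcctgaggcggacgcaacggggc
It holds 24 CG dinucleotides in 300 bases. The median GC content was 59% over the 43 member windows and 52.7% over all windows.

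Of the 4 carriers grouped as carnitine, choline and related, 3 were called lower (75%, against 11.2% of all tested genes) and the other was not called. Their summed level was 991.8 ± 20.7 CPM in WT cells and 872.5 ± 12.7 CPM in S100a16KO+/- cells. Slc25a47, whose substrate is not named here, made up 867.9 and 791.2 CPM of these sums. Slc25a20, which carries acylcarnitines into the matrix for β-oxidation in exchange for free carnitine (chromosome 9, 108662088 to 108684641, plus strand), had 94.7, 94.9 and 100.4 CPM in WT and 62.7, 57.6 and 62.2 CPM in S100a16KO+/- libraries. The genotypes lay well apart, with a log2 fold change of -0.67 (SE 0.06, edgeR adjusted p = 1.01e-06). Slc25a45, a relative linked to the import of methylated amino acids, had 15.9, 13.1 and 15.1 CPM in WT and 9.55, 9.47 and 9.28 CPM in S100a16KO+/- libraries (log2 fold change -0.64, SE 0.10, edgeR adjusted p = 2.70e-04). The S100a16KO+/- means of these 2 genes were 62.9% and 64.2% of the WT means. Slc25a47 had 851, 868 and 885 CPM in WT and 779, 789.8 and 804 CPM in S100a16KO+/- libraries. These CPM values did not overlap, but in FPKM WT replicate 1 (241.9) lay under S100a16KO+/- replicate 3 (251.3). The log2 fold change of -0.13 (SE 0.04, edgeR adjusted p = 0.0415) was the smallest of any called member. The call was lost without any 1 of WT replicates 1, 2 and 3 or S100a16KO+/- replicates 1 and 3, at adjusted p values of 0.0697, 0.120, 0.177, 0.148 and 0.0622, and with the replicate number as a block, at 0.127. Slc25a48, a choline carrier, had 12.5 ± 1.34 and 11.0 ± 0.651 CPM and was not called (log2 fold change -0.19, edgeR adjusted p = 0.240).

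Enzymes of the carnitine steps around Slc25a20 were read from a list of shuttle enzymes, and Cpt2 and Cpt1a were picked from it after their values were seen. Cpt2, which takes acyl groups from the acylcarnitine that Slc25a20 delivers, had a log2 fold change of -0.55 (edgeR adjusted p = 2.09e-05). Crat, the carnitine acetyltransferase, had -1.18 (adjusted p = 9.01e-08). Cpt1a, which makes the acylcarnitine at the outer membrane, moved the other way, at 0.44 (adjusted p = 1.74e-05).

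Amino acid and glutathione carriers went in both directions, with 2 of 7 tested members higher, 2 lower and 3 not called. The called share was 57.1%, against 22.8% of all tested genes. Slc25a22, which brings glutamate into the matrix with a proton (chromosome 7, 141429744 to 141437892, minus strand), had 156, 161 and 149 CPM in WT and 202, 221 and 217 CPM in S100a16KO+/- libraries. There was no overlap, and the log2 fold change was 0.46 (SE 0.05, edgeR adjusted p = 2.83e-05). Slc25a38, the carrier that supplies glycine for the first step of heme synthesis, had 11.5, 13.2 and 12.3 CPM in WT and 17.3, 17.2 and 18.8 CPM in S100a16KO+/- libraries (log2 fold change 0.53, SE 0.09, edgeR adjusted p = 6.36e-04). It was thus higher in the libraries in which the red cell transcripts were low, whose part in its value was not tested. Slc25a44, the branched-chain amino acid carrier, had 51.1, 48.6 and 49.8 CPM in WT and 37.0, 37.6 and 34.9 CPM in S100a16KO+/- libraries (log2 fold change -0.45, SE 0.06, edgeR adjusted p = 4.94e-05). The lowest WT value was above the highest S100a16KO+/- value for this gene. Slc25a39, which imports glutathione and was the third most abundant member, had 284, 252 and 256 CPM in WT and 224, 255 and 221 CPM in S100a16KO+/- libraries. Those ranges overlapped, at a log2 fold change of -0.18 (SE 0.07, edgeR adjusted p = 0.0640), and it lay close to the threshold. It was called in 7 of 17 alternatives, among them DESeq2 (adjusted p = 0.0319), division of the counts by 4 (0.0458), both limma fits (0.0459 and 0.0457) and the fit without S100a16KO+/- replicate 2 (0.00773). Slc25a40, its close relative, and Slc25a12, an aspartate/glutamate carrier, were not called, at log2 fold changes of -0.31 (adjusted p = 0.403) and -0.19 (adjusted p = 0.157).

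Slc25a29, a carrier of basic amino acids, was at a low level, with 2.20, 3.27 and 3.2 CPM in WT and 1.92, 1.73 and 1.9 CPM in S100a16KO+/- libraries. WT replicate 1 lay close to the S100a16KO+/- values. The log2 fold change was -0.64 (SE 0.21, edgeR adjusted p = 0.0400). The call was lost without WT replicate 2 (adjusted p = 0.149) or 3 (0.148), without S100a16KO+/- replicate 1 (0.0800), 2 (0.0969) or 3 (0.0888), and with the replicate number as a block (0.0718). The gene (chromosome 12, 108825873 to 108835883, minus strand) and Slc25a47 (108836046 to 108856815, plus strand) lie head to head, with 162 bases between their extents in the table, and the more abundant of the pair by far is Slc25a47. RefSeq places the start of Slc25a47 farther in, at 108851129, which is 15252 bases from the start of Slc25a29. The window before Slc25a29 is printed because its first 81 printed bases, those farthest from the start, lie inside the extent that the table gives to Slc25a47, on the opposite strand.
Slc25a29 (chr12:108835827-108836126, minus strand): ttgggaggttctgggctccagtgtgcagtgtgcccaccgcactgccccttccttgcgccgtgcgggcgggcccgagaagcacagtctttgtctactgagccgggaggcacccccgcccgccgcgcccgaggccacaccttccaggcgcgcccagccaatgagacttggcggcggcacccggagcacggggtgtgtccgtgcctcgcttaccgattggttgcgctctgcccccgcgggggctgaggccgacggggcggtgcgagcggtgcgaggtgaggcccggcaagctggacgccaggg
It holds 32 CG dinucleotides and a GC content of 72.3%. Whether counting used the strand of the reads is not given in the sources used here, so reads of overlapping genes on opposite strands cannot be told apart.

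Of the 4 carriers of di- and tricarboxylates, 1 was called (25%, against 22.8% of all tested genes). Slc25a10, which exchanges malate or succinate for phosphate (chromosome 11, 120491840 to 120499187, plus strand), had 158, 161 and 158 CPM in WT and 128, 129 and 130.2 CPM in S100a16KO+/- libraries. The genotypes were clearly apart, at 158.9 ± 2.06 and 129.2 ± 1.06 CPM, and the log2 fold change was -0.30 (SE 0.05, edgeR adjusted p = 4.25e-04). Slc25a1, which exports the citrate used for fatty acid synthesis, had 68.9, 57.5 and 59.7 CPM in WT and 66.4, 75.5 and 68.7 CPM in S100a16KO+/- libraries. Its ranges overlapped through WT replicate 1, at a log2 fold change of 0.18 (SE 0.07, edgeR adjusted p = 0.103). Without that library the gene was called, at 0.26 and an adjusted p of 0.0200. Slc25a11, the oxoglutarate/malate carrier of the malate-aspartate shuttle, had 46.4 ± 1.56 and 43.8 ± 0.696 CPM (log2 fold change -0.08, edgeR adjusted p = 0.345). Slc25a21, a carrier of oxoadipate, had 11.0 ± 1.84 and 8.12 ± 1.81 CPM (log2 fold change -0.44, adjusted p = 0.0633), and was called in 5 of 17 alternatives, with DESeq2 (adjusted p = 0.0316), after division of the counts by 4 (0.0463), without WT replicate 2 (0.0401), without S100a16KO+/- replicate 2 (0.00590) and without both that library and WT replicate 1 (0.0146).

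The ADP/ATP and phosphate carriers supply ATP synthase with its substrates and take ATP out to the cytosol. Slc25a5 had 313, 308 and 328 CPM in WT and 276, 249.5 and 281 CPM in S100a16KO+/- libraries, without overlap. Its log2 fold change was -0.24 (SE 0.06, edgeR adjusted p = 0.00681). This value is uncertain, since 49.4% of the 31-base words of its transcripts occur in other annotated transcripts, mostly those of Gm5560, a copy of the gene. Slc25a3, the phosphate carrier, had 205, 207 and 216 CPM in WT and 219.8, 205 and 222 CPM in S100a16KO+/- libraries. Those ranges overlapped almost fully (log2 fold change 0.04, SE 0.05, edgeR adjusted p = 0.629). Slc25a4 had 1.75 ± 0.213 and 2.52 ± 0.309 CPM (log2 fold change 0.53, adjusted p = 0.0813), which is a trace next to Slc25a5.

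Of the 9 carriers of coenzymes and nucleotides, 3 were called higher and 2 lower (55.6% called, against 22.8% of all tested genes). Slc25a51, which brings NAD into the matrix, had 48.1, 57.2 and 49.5 CPM in WT and 66.0, 62.3 and 71.7 CPM in S100a16KO+/- libraries. The highest WT value stayed under the lowest S100a16KO+/- value, and the log2 fold change was 0.37 (SE 0.07, edgeR adjusted p = 0.00223). Slc25a17, which sits in peroxisomes and not in mitochondria and carries coenzyme A, FAD and NAD, had 40.4, 43.9 and 41.5 CPM in WT and 33, 31.2 and 32.9 CPM in S100a16KO+/- libraries (log2 fold change -0.37, SE 0.06, edgeR adjusted p = 4.53e-04). Slc25a16, linked to coenzyme A transport, had 44.0 ± 0.391 and 36.8 ± 1.41 CPM (log2 fold change -0.26, edgeR adjusted p = 0.00416). Its relative Slc25a42, a coenzyme A carrier of similar level, had 48.4 ± 3.70 and 50.5 ± 1.05 CPM and was not called (log2 fold change 0.06, adjusted p = 0.573). Slc25a32, a folate and FAD carrier, had 21.9, 28.9 and 25.5 CPM in WT and 35.2, 27.7 and 34.1 CPM in S100a16KO+/- libraries. WT replicate 2 lay above S100a16KO+/- replicate 2, and the log2 fold change was 0.35 (SE 0.11, edgeR adjusted p = 0.0389). The call was lost without WT replicate 1 (adjusted p = 0.121) or 3 (0.110), without S100a16KO+/- replicate 1 (0.146) or 3 (0.127), and with the replicate number as a block (0.108). Slc25a33 and Slc25a26, carriers of pyrimidine nucleotides and S-adenosylmethionine, were not called, at log2 fold changes of -0.07 and 0.05 and adjusted p values of 0.729 and 0.914.

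Slc25a36, the other pyrimidine nucleotide carrier (chromosome 9, 97074961 to 97111157, minus strand), was low, with 1.3, 1.29 and 1.02 CPM in WT and 1.69, 2.29 and 2.40 CPM in S100a16KO+/- libraries. There was no overlap, and the log2 fold change was 0.82 (SE 0.24, edgeR adjusted p = 0.0250). The call was lost without WT replicate 2 (adjusted p = 0.0520) or 3 (0.0952), without S100a16KO+/- replicate 2 (0.0741) or 3 (0.103), and with the replicate number as a block (0.0518). Its promoter window is printed because it is the second member window with the CRE letters, which lie 161 bases before the start, with the E-box 187 bases before it. Both are in capitals.
Slc25a36 (chr9:97110992-97111291, minus strand): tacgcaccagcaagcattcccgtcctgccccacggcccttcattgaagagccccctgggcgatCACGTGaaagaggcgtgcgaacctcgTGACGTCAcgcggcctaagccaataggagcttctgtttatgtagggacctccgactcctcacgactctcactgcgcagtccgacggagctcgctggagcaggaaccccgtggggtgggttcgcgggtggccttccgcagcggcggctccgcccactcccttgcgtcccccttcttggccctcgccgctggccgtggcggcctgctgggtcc
Slc25a25 holds the CRE letters in the window of its near start alone and was also called higher. Slc25a36 and Slc25a25 had 0.198 and 54.2 FPKM in S100a16KO+/- hepatocytes. The part of the letters in either change was not tested. The transcripts of Slc25a36 share 7.78% of their 31-base words with others.

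In the group of uncoupling proteins and their relatives, which leak protons or carry anions when overexpressed, 1 of 4 tested members was called. That share of 25% stands beside 22.8% of all tested genes. Slc25a30 had 13.3, 15.2 and 13.6 CPM in WT and 22.4, 17.4 and 18.9 CPM in S100a16KO+/- libraries, and all S100a16KO+/- values were higher (log2 fold change 0.48, SE 0.10, edgeR adjusted p = 0.00379). Ucp2 had 10.5 ± 1.46 and 12 ± 0.909 CPM (log2 fold change 0.20, adjusted p = 0.242). Slc25a27 and Slc25a14, which are mainly brain proteins, were at 1.97 ± 0.147 and 1.93 ± 0.193 CPM in WT and were not called, at adjusted p values of 0.167 and 0.492.

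Members with no settled substrate were low, apart from Slc25a46, an outer membrane protein involved in mitochondrial shape, which had 26.6 ± 0.926 and 23.4 ± 1.01 CPM (log2 fold change -0.19, edgeR adjusted p = 0.0737). Slc25a34 had 3.79, 3.25 and 2.92 CPM in WT and 2.12, 1.74 and 1.64 CPM in S100a16KO+/- libraries. There was again no overlap, at a log2 fold change of -0.86 (SE 0.20, edgeR adjusted p = 0.00555). With both WT replicate 1 and S100a16KO+/- replicate 2 left out, its adjusted p was 0.0550. Slc25a35 and Slc25a53 were near 1 CPM and not called, at log2 fold changes of 0.72 and 0.43 and adjusted p values of 0.255 and 0.468.

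Of the 19 called members, 12 were called under every alternative tried, and the values of these 12 are the ones plotted by library. They are Slc25a25, Slc25a28, Slc25a22, Slc25a38, Slc25a51 and Slc25a30 among the higher members, and Slc25a37, Slc25a20, Slc25a45, Slc25a44, Slc25a17 and Slc25a10 among the lower. For the 28 members with a WT mean of at least 10 CPM, the coefficient of variation over 3 libraries had a median of 4.84% in WT and 4.67% in S100a16KO+/- hepatocytes.

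**Figure D4:**
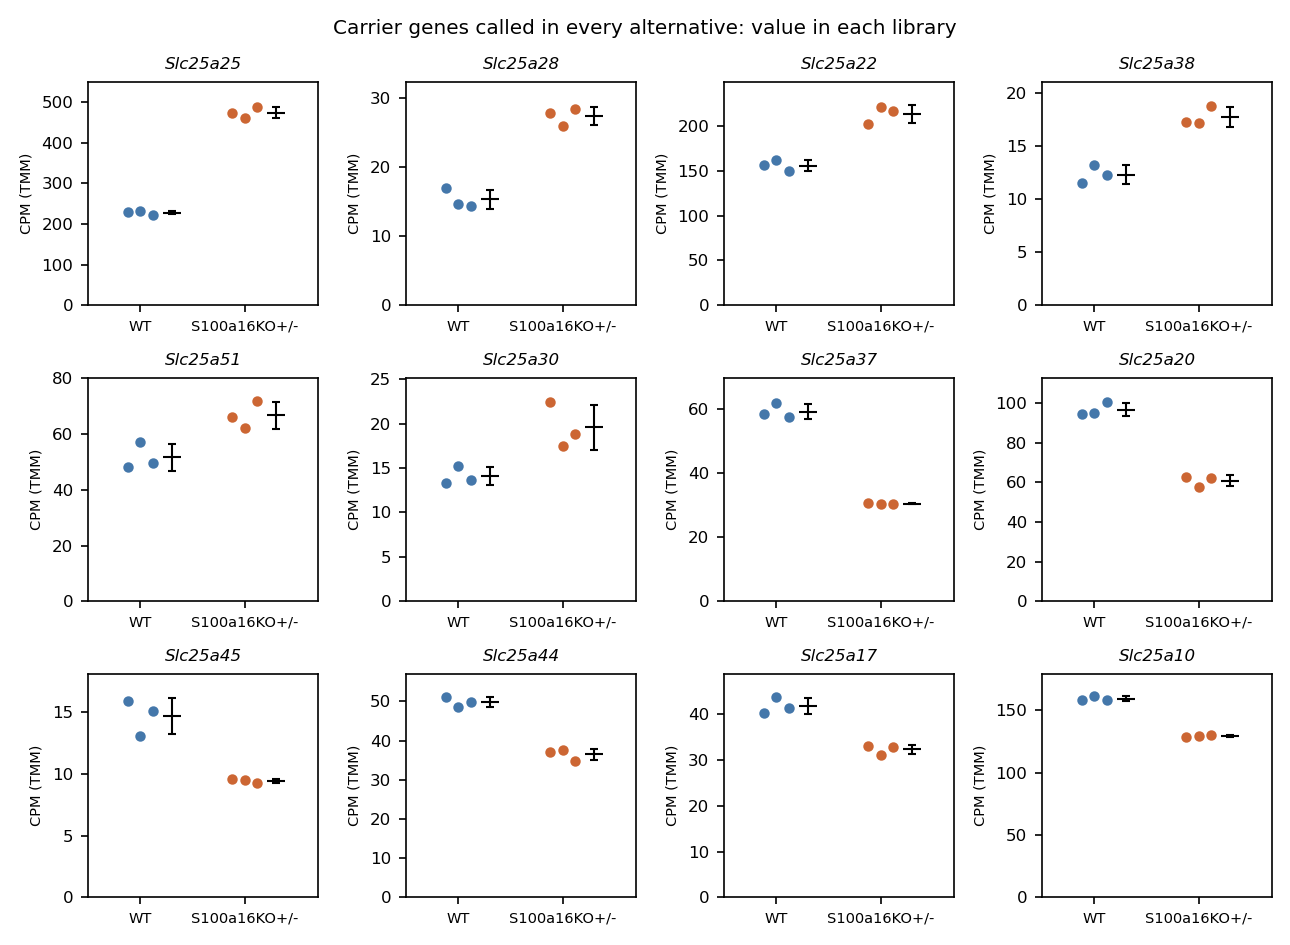
CPM (TMM-scaled) in each library of the 12 members called under every alternative, WT in blue and S100a16KO+/- in orange, with the mean and SD as a bar beside the points and the axis from 0. The genotypes do not overlap in any panel, and the first 6 panels are higher and the last 6 lower in S100a16KO+/-.

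The carriers were set beside 6 lists of other genes of mitochondrial transport, import and metabolite shuttles, of which 60 genes were tested. Here 3 genes were called higher and 20 lower (38.3% called, against 22.8% of all tested genes). Of the 56 with a mean of at least 1 FPKM, 22 were called (39.3%), against 32.7% of all genes at that level. By direction, 11.6% of all tested genes were called higher and 11.2% lower, and 15.5% and 17.2% of those at that level. Of the 23 calls, 10 came from the 12 tested shuttle enzymes described below, which are enzymes and not transporters. The lists were not tested against the carriers. The import machinery of the carriers had 7 of 24 tested genes lower (29.2%, against 11.2% of all tested genes called lower) and the other 17 not called. The lower genes include Timm22, the pore that inserts carriers (log2 fold change -0.61, edgeR adjusted p = 0.0142), Tomm40l (-0.50, adjusted p = 4.50e-05), Agk, a subunit of the Timm22 complex (-0.47, adjusted p = 0.0444), and Timm29 (-0.46, adjusted p = 2.63e-04). In the list labelled inner membrane carriers outside the SLC25 names, 2 of 9 genes were lower (22.2%). They were Mpc1, a subunit of the pyruvate carrier (-0.24, adjusted p = 0.0106), and Mtch2 (-0.22, adjusted p = 0.0130). Mtch2 and Mtch1, also in this list, are proteins of the outer membrane. Vdac1 was the 1 of 3 outer membrane channels called (33.3%), and it was lower (-0.26, adjusted p = 0.00250). The ABC transporters had 2 of 4 lower (50%), Abcb10 (-0.32, adjusted p = 0.0196) among them. Of 8 calcium uptake genes Slc8b1, the sodium/calcium exchanger, was the 1 called (12.5%) and was higher (0.47, adjusted p = 0.00117). Shares over so few genes are imprecise, and the lists were chosen with earlier results of these data known.

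The shuttle enzymes had 2 of 12 higher and 8 lower (83.3% called, against 22.8% of all tested genes). Got1, the cytosolic aspartate aminotransferase, had a log2 fold change of 1.74 (edgeR adjusted p = 9.80e-12), whereas its mitochondrial partner Got2, also picked after its value was seen, had -0.29 (adjusted p = 0.00234). Both enzymes of the glycerol phosphate shuttle, which passes electrons of cytosolic NADH to the respiratory chain without a carrier, were lower, Gpd1 at -0.73 (adjusted p = 1.78e-07) and Gpd2 at -0.58 (adjusted p = 4.12e-05). The oxoglutarate/malate carrier Slc25a11, which works with Got1 and Got2, is described above as not called.

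**Figure D5:**
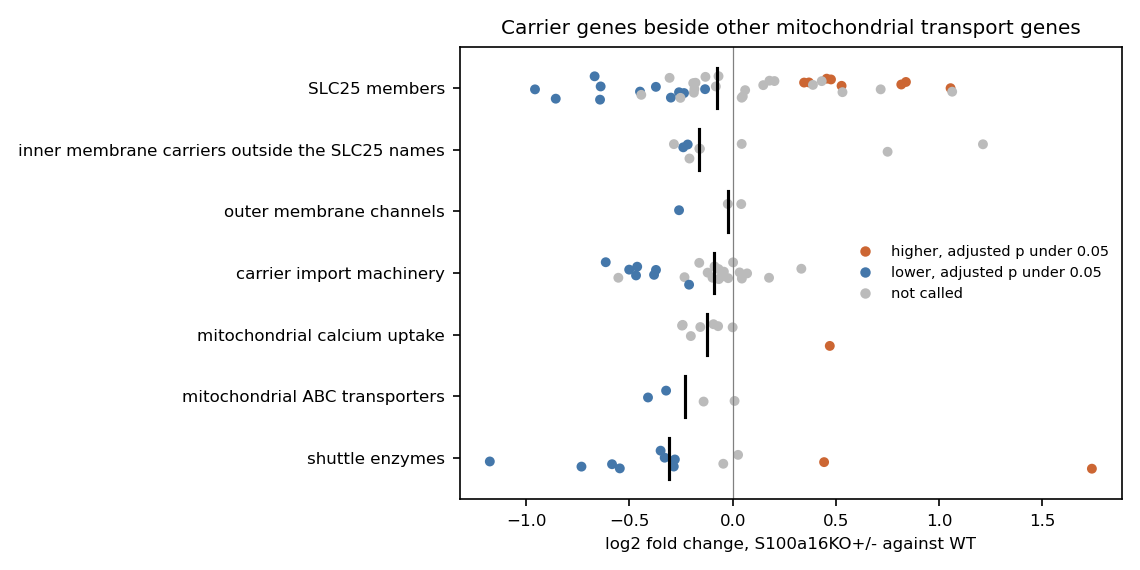
Log2 fold change, S100a16KO+/- against WT, of the 40 tested carrier genes and of the tested genes of 6 other lists, 1 point per gene with the list median as a black bar. Orange and blue points are called higher and lower, and the called genes of the import machinery are 7 of 24, whereas the carriers have 19 of 40. The difference between lists was not tested.

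Markers of other liver cells also differed, beside 11.6% of all tested genes called higher and 11.2% called lower. Endothelial markers were called higher in 6 of 7 cases and lower in 1, with a summed level of 251.2 to 265.7 CPM in WT and 377 to 391 CPM in S100a16KO+/- libraries. Stellate cell markers were higher in 3 of 6 (35.7 to 38.6 against 63.7 to 71.0 CPM) and macrophage markers in 4 of 12 (176 to 205 against 208 to 227 CPM). The other 8 macrophage markers were not called, at log2 fold changes from -0.10 (Adgre1) to 0.27 (C1qc). Of the 3 cholangiocyte markers tested, 1 was lower, and of 6 leukocyte markers 0 were called by edgeR or DESeq2 and 0 had an unadjusted p under 0.05, with 7.92 to 10.8 CPM in WT and 10.4 to 11.9 CPM in S100a16KO+/- libraries. The summed levels of the endothelial, stellate and macrophage lists were thus higher in the same libraries as the members called higher, though most macrophage markers were not called. The part of these cells in those results was not tested.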

How the data were processed

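Primary hepatocytes of alcohol-fed WT and S100a16KO+/- mice were sequenced as poly(A)-selected, strand-specific paired-end libraries with molecular identifiers, 3 per genotype, grouped by the genotype given in the labels. The submitters' processing notes name cutadapt 1.9, HISAT2 2.0.4, UMI-tools, StringTie 1.3.4d, DESeq2 and edgeR and the build mm10, with no settings. The authors deposited an estimated count, not scaled for library size, and an FPKM value, scaled for transcript length and depth, for each gene and library. Estimated counts pile up at multiples of 4, so that 1 fragment is worth about 4 counts, which makes the counts look more precise than the fragments behind them. Division by 4 was therefore one of the alternatives. FPKM as deposited carries no adjustment for the makeup of a library, so that genotypes were compared on counts. Limits set by a count of 0 cover counting error only.

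Counts were rounded to whole numbers and tested with edgeR 4.0.16 in R 4.3.3 (TMM, filterByExpr, robust quasi-likelihood fit, two-sided, no covariate), on the whole table, with Benjamini-Hochberg adjustment over the 15957 tested genes, and only the rows of interest are given. The test was checked on simulated counts. The study used DESeq2 with a fold change of 2 or more at an unadjusted p under 0.05, and members meeting it are also counted. Values in every library are given for called members with an absolute log2 fold change of at least 0.3 and for the 8 members of highest mean FPKM, and the other members are given within their role group. Of the other lists, called genes with the largest change are named, at most 4 per list. Cpt2, Cpt1a, Got2, Alas2, Apoa1, Asgr1 and the ratios of related members fall outside this rule and were chosen after their values were seen. Role groups were assigned from general knowledge. The members and lists were chosen with earlier results of these data known. Some members of the family that fit the naming rule are not reported here.

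Positions of genes are as in the table, and all 45 members were found by identifier in GENCODE M21 on GRCm38, 37 of them at the same position. Promoter windows are from RefSeq on GRCm38.p6. Shared sequence was measured as the 31-base words of the GENCODE M21 transcripts of a member that occur in transcripts of other genes. The alternatives were DESeq2 1.42.0, other scalings and filters, limma 3.58.1 on log2(FPKM + 1) and log2(FPKM + 0.1), the replicate number as a block and leaving out each library in turn. Leaving out both libraries with most mitochondrially encoded transcripts was added after the data were seen.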

Additional observations from a re-analysis of the deposited data

How the results depend on the processing

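The 19 called members became 15 to 20 when 1 library was left out, and 13 to 21 under the other alternatives, with the lowest count under both limma fits on FPKM, which test 29 members, and the highest under DESeq2, division of the counts by 4 and leaving out both WT replicate 1 and S100a16KO+/- replicate 2 (8 higher and 13 lower). None of the 19 changed direction under any alternative, and 12 stayed called under all of them. The 7 that lost the call somewhere were Slc25a47, Slc25a5, Slc25a16, Slc25a32, Slc25a29, Slc25a36 and Slc25a34, of which Slc25a5 and Slc25a16 lost it under the limma fits alone, at adjusted p values of 0.0595 to 0.0862. Of members not called, 4 were called somewhere, Slc25a39, Slc25a1, Slc25a23 and Slc25a21. The 2 members that met the criterion of a fold change of at least 2 became 1 with genes of at least 1 FPKM alone, under limma on log2(FPKM + 1), under limma on log2(FPKM + 0.1) and with both libraries left out (1 in each), and 1 to 2 when 1 library was left out. Without S100a16KO+/- replicate 1 the 2 were Slc25a25 and Slc25a35 in place of Slc25a24. Slc25a24 has a mean under 1 FPKM, and the fits on FPKM leave such genes out. The 23 called genes of the transport lists became 16 to 24 when 1 library was left out and 18 to 26 otherwise, with 16 without WT replicate 3. The only members whose direction reversed were not called: the log2 fold change of Slc25a33 ran from -0.15 to 0.019 when 1 library was left out, turning positive without WT replicate 3 and without S100a16KO+/- replicate 2, and that of Slc25a26 ran from -0.18 to 0.29, turning negative without WT replicate 1 and without S100a16KO+/- replicate 3, and was -0.072 with both libraries left out. The cause was not tested. With the replicate number as a block, 15 members were called (6 higher and 9 lower), 22 genes of the transport lists were called and 2 members met the fold criterion, and the calls of Slc25a47, Slc25a32, Slc25a29 and Slc25a36 were lost. Deviations of same-numbered libraries from their group means correlated at -0.05, -0.02 and 0.05. No strong deviation shared by same-numbered libraries was thus seen, but these correlations cannot show whether the libraries were paired. No scaling moved the median change of all genes by more than 0.1 on the log2 scale. Members under 1 FPKM rest on few fragments, and a difference there may not be detectable at this depth.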
